A study of Mus musculus with 18 samples.

Results

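Broad H3K4me3 domains are stretches of chromatin in which trimethylated lysine 4 of histone H3, the mark of active and poised promoters, runs on for several kilobases. They were defined here by joining every overlapping H3K4me3 peak of 9 libraries on chromosomes 1 to 19 and keeping the joined regions of 4000 bp or more. This gave 1336 domains among 179043 merged regions (0.746%), which held 6.73 of the 160.0 Mb under any peak (4.20%). The rule drew on all 9 peak lists alike and on no genotype, but a domain's length and its covered length in each library came from the same peaks.

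The libraries were CUT&RUN profiles, in which an antibody tethers a nuclease that cuts out the chromatin carrying the mark. Prospermatogonia are germ cells of the fetal testis in mitotic arrest, meaning that they do not divide again until after birth. They were isolated at stage E17.5 from mouse embryos by their Oct4-GFP reporter, frozen, and used at 4000 nuclei per library with antibody 2729 of Cell Signaling Technology. The genotypes were Tet1-/- (KO), Tet1HxD/HxD (HxD), homozygous for an allele named after the HxD motif that holds iron in the catalytic domain, and Tet1+/+ (WT), with 3 biological replicates each and 1 batch label shared by all. Another 9 of the 18 samples, made with IgG, were not used here. Which part of Tet1 the KO allele removes, what change the HxD allele carries, and whether replicates came from separate litters are not stated in the labels, so every p-value below measures the spread between these libraries.

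H3K4 trimethylation is written by the SET1 and MLL (KMT2) enzymes, which are drawn to unmethylated CpG-rich DNA, and removed by the KDM5 enzymes. In many cell types the broadest domains lie over genes of that cell's identity, and over developmental regulators that also carry the Polycomb mark H3K27me3 and are held silent. TET1 oxidises 5-methylcytosine and binds CpG-rich promoters, where it also acts through partners such as SIN3A independently of catalysis.

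Promoter sequences are shown for 6 domains that the results below return to: the longest domain (Dmrta2), domains with a start site and among the smallest p of those lower in KO (Hoxd12) or HxD (Ston2) and of those higher in KO (H2ac13, a histone H2A gene) or HxD (Ing1), and a germ cell gene (Pou5f1, which encodes OCT4). Each runs 5′ to 3′ on the gene's strand from 250 bases before to 50 bases after the start site in RefSeq GRCm38.p6, with every CpG in capitals.
Dmrta2, chr4:109977775-109978074, + strand: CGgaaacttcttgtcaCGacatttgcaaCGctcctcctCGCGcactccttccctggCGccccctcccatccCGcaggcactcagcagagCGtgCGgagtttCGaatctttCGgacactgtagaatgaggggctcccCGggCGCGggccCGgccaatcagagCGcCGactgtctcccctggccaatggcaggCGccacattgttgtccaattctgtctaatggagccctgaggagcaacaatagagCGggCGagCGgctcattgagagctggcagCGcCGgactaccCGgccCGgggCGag
Hoxd12, chr2:74674763-74675062, + strand: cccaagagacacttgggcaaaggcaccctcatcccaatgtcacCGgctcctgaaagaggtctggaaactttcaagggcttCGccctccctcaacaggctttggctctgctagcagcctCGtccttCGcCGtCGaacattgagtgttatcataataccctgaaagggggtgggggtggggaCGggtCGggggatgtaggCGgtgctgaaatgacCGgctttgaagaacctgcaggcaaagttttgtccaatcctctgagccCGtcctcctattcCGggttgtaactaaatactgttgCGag
Ston2, chr12:91786387-91786686, - strand: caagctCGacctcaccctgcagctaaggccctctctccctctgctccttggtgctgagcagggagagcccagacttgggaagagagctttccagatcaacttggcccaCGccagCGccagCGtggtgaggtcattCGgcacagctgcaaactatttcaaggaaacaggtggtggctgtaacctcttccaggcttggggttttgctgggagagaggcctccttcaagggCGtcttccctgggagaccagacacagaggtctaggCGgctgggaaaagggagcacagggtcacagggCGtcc
H2ac13, chr13:21716162-21716461, + strand: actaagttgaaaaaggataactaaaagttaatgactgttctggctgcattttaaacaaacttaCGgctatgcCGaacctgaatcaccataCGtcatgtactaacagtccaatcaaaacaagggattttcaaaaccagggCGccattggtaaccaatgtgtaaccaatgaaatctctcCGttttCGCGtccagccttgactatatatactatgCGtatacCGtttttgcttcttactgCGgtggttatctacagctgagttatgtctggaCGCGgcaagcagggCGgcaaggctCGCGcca
Ing1, chr8:11555512-11555811, + strand: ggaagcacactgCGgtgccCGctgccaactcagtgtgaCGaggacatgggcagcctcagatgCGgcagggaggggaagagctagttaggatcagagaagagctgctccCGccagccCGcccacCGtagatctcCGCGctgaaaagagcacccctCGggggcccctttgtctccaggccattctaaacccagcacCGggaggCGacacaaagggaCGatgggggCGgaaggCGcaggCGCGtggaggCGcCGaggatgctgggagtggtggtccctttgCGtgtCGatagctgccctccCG
Pou5f1, chr17:35505782-35506081, + strand: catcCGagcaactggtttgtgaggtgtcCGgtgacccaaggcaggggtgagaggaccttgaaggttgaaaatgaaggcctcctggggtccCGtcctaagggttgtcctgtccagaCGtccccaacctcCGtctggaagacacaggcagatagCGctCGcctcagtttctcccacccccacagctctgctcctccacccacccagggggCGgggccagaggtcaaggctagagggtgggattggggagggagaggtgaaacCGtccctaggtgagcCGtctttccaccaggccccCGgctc
The 300 bases held 26 CpG for Dmrta2, 13 for Hoxd12, 8 for Ston2, 15 for H2ac13, 22 for Ing1 and 11 for Pou5f1, against a median of 14 over 16457 coding promoters of the same length. A promoter sequence was at hand for 882 of the 1193 coding genes that start in a domain (73.9%) and for 79.6% of all coding genes. Over those 882 the median was 22 CpG. The other domain genes are missing, so this is a description and no comparison as a set is drawn. The 6 promoters shown were picked for other reasons and do not stand for the domains.

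The 9 peak lists differed in length and reach. They held 67973 to 78045 peaks covering 49.4 to 71.4 Mb in KO, 48468 to 66289 peaks covering 44.8 to 67.9 Mb in HxD, and 81072 to 123424 peaks covering 75.1 to 105.7 Mb in WT. KO replicate 1 covered the least of the domains and KO replicate 3 the most. The WT libraries stood apart in peak height. Over the 25421 merged regions with a peak in all 9 libraries, Spearman's rho of the highest fold enrichment was 0.34 to 0.43 between KO libraries, 0.27 to 0.36 between HxD libraries and 0.27 to 0.48 between KO and HxD libraries. It was 0.14 to 0.16 between WT libraries and 0.02 to 0.12 between WT and mutant libraries. These points share peak callers and region widths and are given as a description; every result set against WT below rests on those 3 libraries. The part of this difference in those results was not tested.

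Of 12 genes that define prospermatogonia, 1 started in a domain, Pou5f1. Of the 9 such genes whose start site is known, 5 to 9 had a peak within 1 kb in KO, 6 to 8 in HxD and 6 to 8 in WT libraries. Sertoli markers had one at 8 to 9 of 9 start sites in KO, 7 to 8 in HxD and 8 in WT libraries, Leydig and interstitial markers at 7 to 8 of 10 in KO, 7 to 8 in HxD and 7 to 9 in WT, and endothelial or blood markers at 3 to 4 of 8 in KO, 3 to 4 in HxD and 4 to 5 in WT. The mark also sits on silent poised promoters, so these counts do not measure other cells, and their part in the results was not tested.

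Tet1 itself started in a domain (chr10:62883840-62888103, 4264 bp). Peaks covered 2732, 3331 and 3623 bp of it in the KO libraries, 3495, 3260 and 2580 bp in the HxD libraries and 2570, 2415 and 3315 bp in the WT libraries. All 3 genotypes overlapped (limma, KO minus WT 462.0 ± 389 bp SE, adjusted p = 0.445; HxD minus WT 345.0 ± 389 bp, adjusted p = 0.574). Its highest fold enrichment was 9.90, 23.8 and 50.4 in KO, 29.2, 32.4 and 18.8 in HxD and 11.8, 5.15 and 11.8 in WT libraries. A promoter mark does not show whether the coding part of the gene is intact, so it checks no label.

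The domains were long, present in nearly every library and seldom whole. Their median length was 4643.5 bp and the longest was 13811 bp, with 464 of 5000 bp or more, 39 of 8000 bp or more and 6 of 10000 bp or more. All 9 libraries had a peak in 1322 of them, 12 were missed by 1 library and 2 by 2 libraries. Over all merged regions, 14.2% had a peak in all 9. Because the rule joins peaks of all 9 lists, long regions tend to hold peaks of many libraries, and nothing is read from the difference. Despite the name, 478 domains (35.8%) held no single peak of 4000 bp in any library and reached that length only when peaks of several libraries were joined. A further 381 held such an unbroken peak in 1 library, 131 in 5 or more, and 2 in all 9: those of Esrp1, an epithelial splicing regulator, and Lhx1, a LIM homeodomain factor also used by spermatogonial stem cells. Just inside the threshold lay the domains of Snurf, Plcd3 and Lmnb1, at 4002 bp each, and just outside it the regions of Hexim1, Frat1 and Mtcl1, at 3999 bp each.

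The longest domains lay over developmental regulators and large chromatin or signalling genes. Dmrta2, a DMRT transcription factor of the developing forebrain, had the longest (chr4:109973672-109987482), with 8274, 10217 and 11911 bp covered in KO, 12703, 9072 and 10448 bp in HxD and 11972, 12279 and 12543 bp in WT libraries. It was cut into 2 to 9 peaks and the WT values lay within the HxD range. Tnrc18 (chr5:142812890-142824348, 11459 bp) was the opposite in form, a single peak in all 3 KO libraries and 2 HxD libraries and 2 to 4 peaks in WT libraries. It was covered over 10315, 10498 and 11173 bp in KO, 10661, 10329 and 9913 bp in HxD and 8877, 9908 and 9685 bp in WT libraries, and every KO and HxD library was above every WT library, by a difference the fit did not call (limma, KO minus WT 1172.0 ± 2800 bp SE, adjusted p = 0.805). The SE is large because limma shares the spread among regions of like mean length, and few are so long. Next came a domain 5433 bp from Abt1 (11180 bp), then those over the adjoining start sites of Rasl10a and Gas2l1 (11033 bp), the tumour suppressor Hic1 (10322 bp) and the forebrain homeobox gene Otx1 (10062 bp).

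What the domains shared beyond length was mostly a gene start. A coding start site lay inside 1022 (76.5%), against 42.3% of the 24099 other regions present in all 9 libraries and 7.36% of all merged regions. These shares were read from RefSeq starts, and a longer region has more room for one. In 862 domains there was 1 start site and in 160 there were 2 or more, for 1193 coding genes (5.77% of the 20665 on these chromosomes). Another 107 domains lay within 5 kb of a start site, and 207 lay further off, 33 of them beyond 100 kb. For 329 domains the nearest gene has no strand in the tables used, and its nearer end was taken as its start. Domains were most numerous on chromosome 11 (110) and chromosome 2 (98), and 113 (8.46%) lay within 10 kb of another.

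Around the start site the domains leaned into the gene. In the 633 domains with 1 coding start site of known strand, the median reach was 1712 bp upstream and 3042 bp downstream, and 492 (77.7%) reached further downstream. The start site itself was under a peak in 78.2, 93.5 and 95.9% of these domains in KO, 91.5, 87.4 and 80.4% in HxD and 72.2, 72.8 and 83.6% in WT libraries. Coverage was highest 400 to 800 bp downstream. At 500 bp downstream it was 86.4, 97.6 and 98.3% in KO, 98.4, 93.7 and 89.1% in HxD and 79.8, 76.1 and 88.2% in WT libraries. All HxD libraries were above all WT libraries there, and KO replicate 1 fell among the WT libraries. At 2000 bp downstream the groups lay within each other, at 50.2, 66.8 and 73.8% in KO, 66.5, 52.9 and 54.7% in HxD and 59.2, 57.8 and 66.5% in WT libraries.

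**Figure D1:**
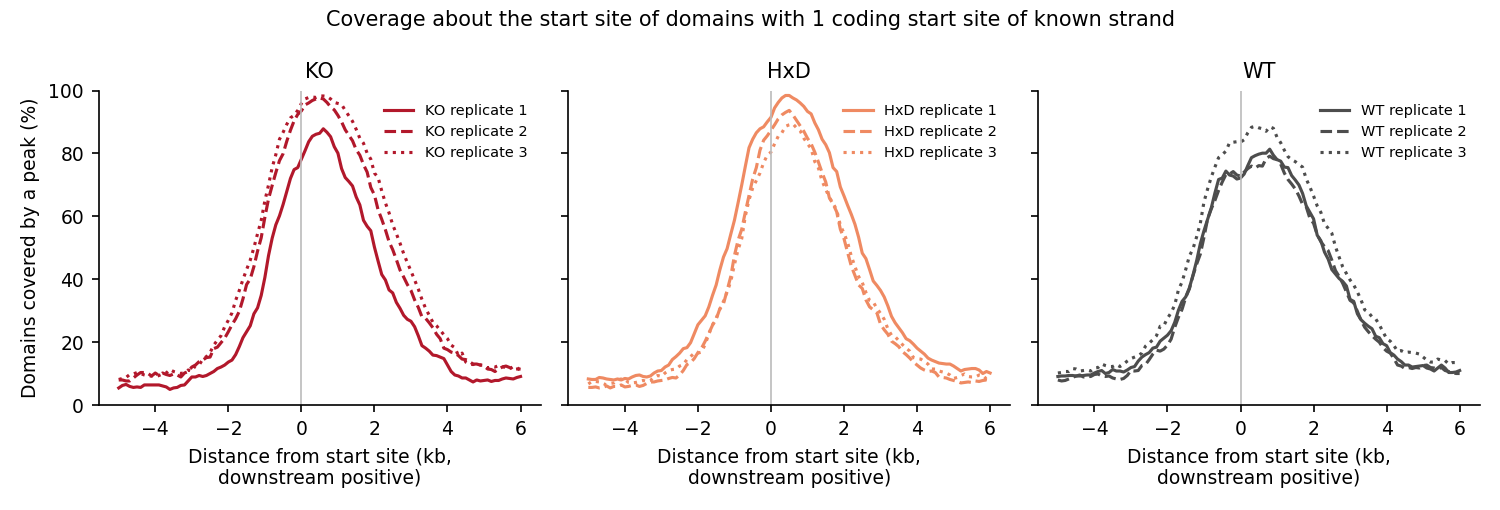
Percentage of 633 domains covered by a peak (y axis) at each distance from the start site in kb (x axis, downstream positive), 1 line per library, by genotype. The lines lean downstream in every library, and at 500 bp downstream WT libraries reach 76.1 to 88.2%, against 86.4 to 98.3% in KO and 89.1 to 98.4% in HxD libraries.

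Of the gene lists, those of developmental regulators and of pluripotency and primordial germ cells had the highest shares of genes that started in a domain. Those of later germ cells were among the lower ones, but only the meiotic share was below the 5.77% of all coding genes. Of 78 signalling and transcription factor genes of embryonic patterning (other than homeobox genes) 42 did (53.9%), among them Sox2, Gata6, Shh, Wnt1 and Bmp4. Of 91 Hox and other homeobox genes 40 did (44.0%), with members of all 4 Hox clusters. Of 36 pluripotency and primordial germ cell genes 15 did (41.7%), among them Pou5f1, Prdm1, Prdm14, Tfap2c, Lin28a and Nodal. H3K4 methyltransferase genes and their partners came to 7 of 21 (33.3%): Kmt2a, Kmt2b, Kmt2c, Kmt2e, Setd1b, Prdm9 and Setd7. DNA methylation genes and their partners came to 9 of 31 (29.0%), with Tet1, Dppa3, Nsd1 and the TET1 partner Sin3a. Imprinted genes (10 of 34) and Sertoli markers (5 of 17) were both at 29.4%. Housekeeping genes (7 of 42, 16.7%), prospermatogonial and spermatogonial genes (7 of 51, 13.7%), Leydig and interstitial markers (2 of 17) and endothelial or blood markers (1 of 14) had lower shares. Meiotic genes had the lowest, 2 of 36 (5.56%), near the 5.77% of all coding genes. The lists differ in promoter type and gene density, and the shares are a description.

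**Figure D2:**
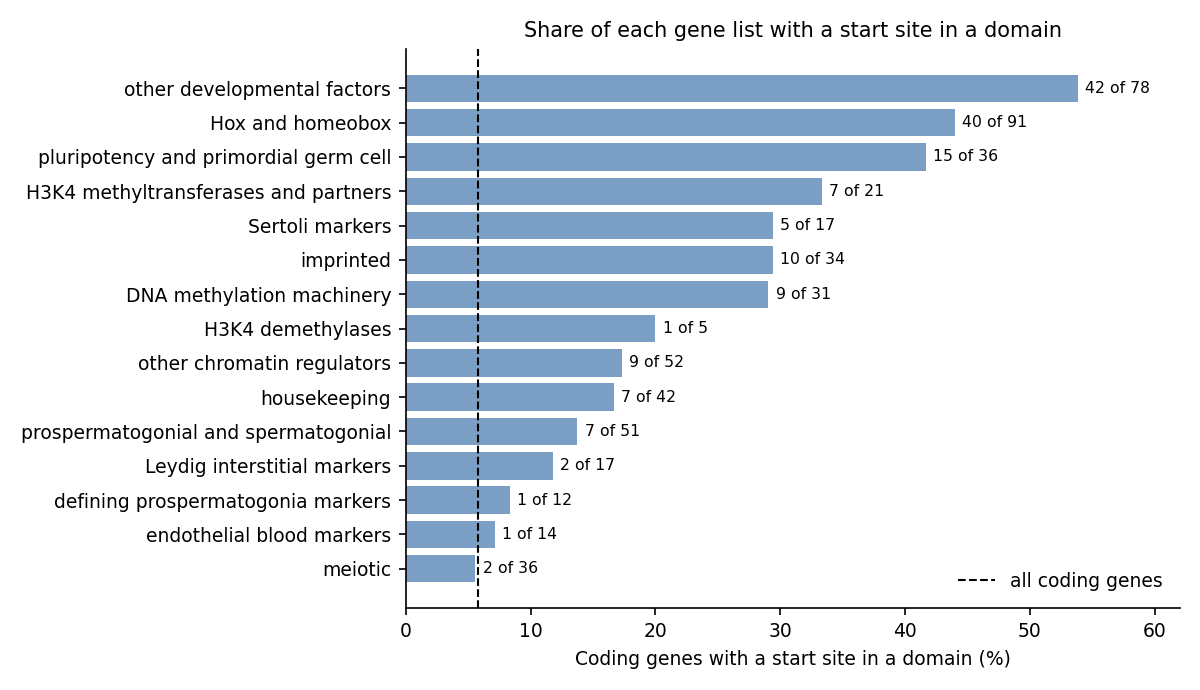
Percentage of the coding genes of each list on chromosomes 1 to 19 that start in a domain (bars, x axis), with the number of genes at each bar and the share over all coding genes as the dashed line. Developmental, homeobox and pluripotency lists are at 41.7 to 53.9% and meiotic genes at 5.56%, beside 5.77% of all coding genes.

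Because a domain had to reach 4000 bp in the union of all libraries, the genotype that supplied that length is part of the rule. Joining the 3 KO libraries alone, 804 domains reached 4000 bp, joining the HxD libraries 533 and joining the WT libraries 714. Each genotype sufficed for 339 domains, only KO for 223, only HxD for 38, only WT for 223, and none for 238. A domain that reached the threshold through 1 genotype had to be longer there, so the counts that follow describe which domains differ and are no independent sign that the domains as a group differ.

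Covered length per domain did not separate the genotypes, while peak number and relative height did. Domains were covered over 2959, 3873 and 4152 bp on average in KO, 3914, 3191 and 3218 bp in HxD and 3462, 3367 and 3951 bp in WT libraries. That was 58.8 to 82.5% of the merged length in KO, 63.4 to 77.8% in HxD and 66.9 to 78.5% in WT libraries. The number of separate peaks per domain averaged 1.61 ± 0.228 in KO, 1.71 ± 0.204 in HxD and 2.07 ± 0.0721 in WT libraries (SD, n = 3 each), and all WT libraries were above all mutant libraries. The WT lists were also the longest. With each list cut to its 48468 strongest peaks, the mean was 1.46 in KO, 1.58 in HxD and 1.46 in WT libraries and the groups overlapped. Unbroken domains numbered 102, 301 and 596 in KO, 369, 136 and 111 in HxD and 150, 129 and 255 in WT libraries. The longest unbroken peak was 10315 to 11173 bp in KO, 9862 to 10661 bp in HxD and 7737 to 8881 bp in WT libraries, with all mutant libraries above all WT libraries. In all 3 KO libraries and in HxD replicates 1 and 3 this peak was that of Tnrc18. The separation therefore rests largely on 1 domain.

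Domains were also taller than other regions, more so in the mutants. The fold enrichment of a peak is the authors' own value at its summit, and a domain was given the highest of its peaks. The median over domains was 1.50, 1.43 and 1.74 times the median over all regions present in 9 libraries in KO, 1.38, 1.52 and 1.31 times in HxD and 1.15, 1.12 and 1.15 times in WT libraries, with no overlap between mutant and WT libraries. In regions of 2 to 4 kb the same ratio was 1.17 to 1.31 in KO, 1.10 to 1.21 in HxD and 1.01 to 1.03 in WT libraries. Over the 25421 regions, merged length and highest fold had a Spearman's rho of 0.41 to 0.50 in KO, 0.35 to 0.46 in HxD and 0.13 to 0.14 in WT libraries.

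**Figure D3:**
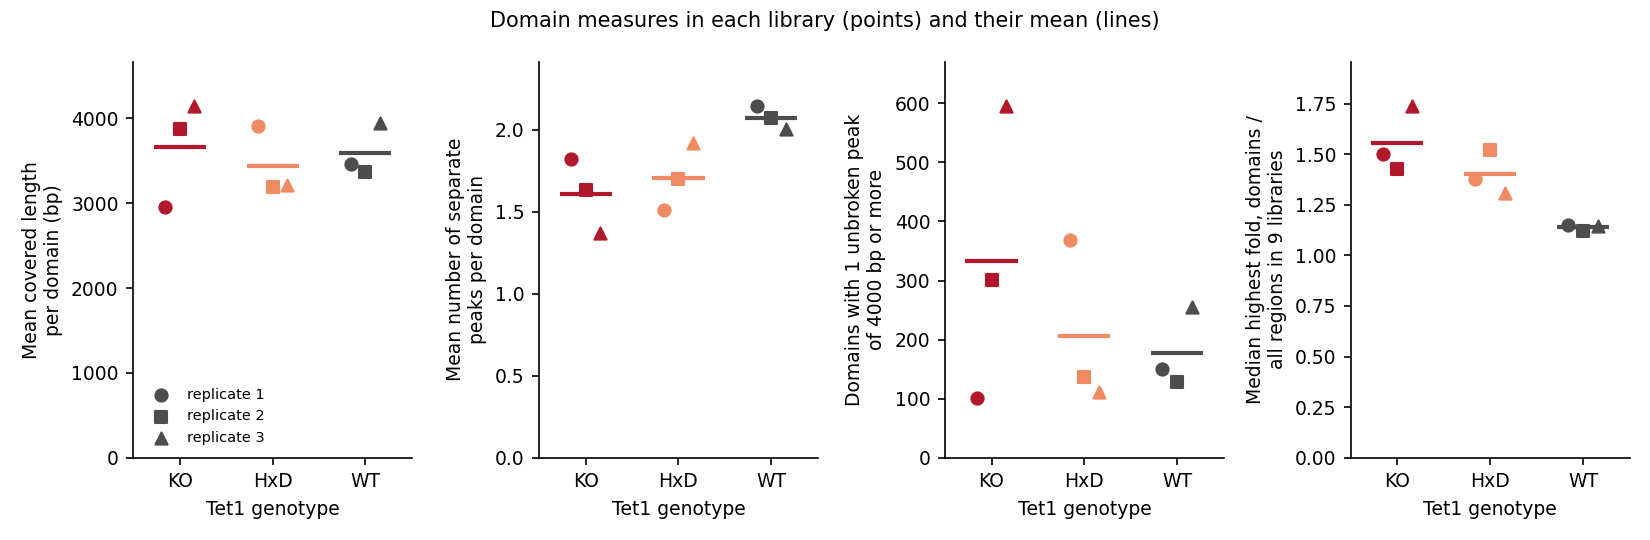
Mean covered length in bp, mean number of separate peaks, number of unbroken domains and the ratio of the median highest fold in domains to that in all regions present in 9 libraries (y axes, from 0), by genotype. Points are libraries, with shapes for replicates 1 to 3, and lines are means; only peak number and the fold ratio separate WT from both mutants, and peak number does not with lists of equal length.

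Set against WT, KO libraries had shorter coverage over some domains and longer coverage over others. With a linear model fitted by limma to the covered length of all 78668 merged regions with a peak in at least 3 libraries, and p adjusted over all of them by Benjamini and Hochberg, 42 domains were lower in KO (3.14%) and 39 higher (2.92%). Over all regions tested, 11.9% were called lower and 0.426% higher, but calls were most frequent among regions present in few libraries (29.0% of those with a peak in 3, either way, and 2.57% of those with a peak in all 9). In the same fit, 1.85% of the regions present in all 9 libraries were called lower and 0.716% higher; since the domains were chosen on these peaks, nothing is read from the difference. The median difference was 99.5 bp over domains, −299.7 bp over all regions tested and −110.7 bp over regions present in all 9 libraries. Leaving out KO replicate 3 gave a domain median of −140.2 bp, and leaving out KO replicate 1 gave 426.2 bp. With the mean of every library set to the same value the domain median was 381.4 bp, and 24 domains were lower and 96 higher, and with lists of equal length 4 and 48. The calls were fragile: none of the 81 remained without KO replicate 1 (adjusted p = 0.0588 to 0.183) or without KO replicate 3 (0.0795 to 0.184), while 36 remained without WT replicate 2, 27 without WT replicate 3 and 26 without WT replicate 1. When limma was fitted only to regions present in all 9 libraries, 4 domains were called lower and 0 higher, beside 27 of all 25421 such regions lower (0.106%) and 2 higher (0.00787%). At an unadjusted p under 0.05, 102 domains were lower and 150 higher, beside 27.3% and 1.95% of all regions tested. Of the 42 lower domains 34 had reached 4000 bp only through WT libraries, and of the 39 higher ones 20 only through KO libraries and 11 only through KO and HxD libraries.

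Of all 1336 domains, 1022 held a start site, 207 lay over 5 kb from one, and 59 belonged to the Hox and homeobox list. Among the 42 domains lower in KO, 24 held a start site, 17 lay over 5 kb from one, and 4 belonged to that list. The domain with the smallest p lay in a gene desert on chromosome 4 (chr4:38555872-38560222), 890071 bp from the start of 1700009N14Rik. It was covered over 716, 890 and 836 bp in KO, 1446, 1206 and 1800 bp in HxD and 3611, 3966 and 3111 bp in WT libraries. All KO libraries were below all HxD libraries and these below all WT libraries, without any gap in height, since the highest fold was 7.15, 13.7 and 7.49 in KO, 6.73, 8.07 and 8.64 in HxD and 15.7, 6.03 and 6.95 in WT. The difference from WT was −2748.7 ± 300.4 bp for KO (SE, adjusted p = 0.0133), and for HxD it was −2078.7 bp (adjusted p = 0.018), and it stayed called in both mutants when only regions present in all 9 libraries were fitted (0.00156 and 0.0162).

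Hoxd12, a posterior Hox gene of limb and axis patterning whose promoter is shown above, was covered over 1382, 2471 and 2577 bp in KO, 3303, 2318 and 2952 bp in HxD and 4203, 4665 and 4897 bp in WT libraries (KO minus WT −2445.0 ± 413 bp SE, limma adjusted p = 0.0159). Every mutant library was below every WT library. Nkx6-1, a homeodomain factor of the neural tube and pancreas, had 2245, 4099 and 3720 bp in KO, 5467, 3692 and 3827 bp in HxD and 6136, 6383 and 5826 bp in WT libraries (KO minus WT −2760.3 ± 606 bp, adjusted p = 0.018). Esrrg, an orphan nuclear receptor, had 2127, 5200 and 3916 bp in KO and 5192, 6677 and 6312 bp in WT libraries (−2312.7 ± 707 bp, adjusted p = 0.0464), with KO replicate 2 above the lowest WT library. The others with the largest drops were domains of Robo3, an axon guidance receptor, and domains 7373 bp from Uncx, 18700 bp from Hjurp, 40708 bp from Arhgef4, 61466 bp from Vmn2r100 and 1203131 bp from Adgrl3 (differences of −2982.0 to −2318.3 bp, adjusted p = 0.0159 to 0.0426).

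Of all 1336 domains, 1022 held a start site and 207 lay over 5 kb from one. Among the 39 domains higher in KO, 32 held a start site and 5 lay over 5 kb from one. Bahcc1, a gene for a large BAH domain chromatin protein (chr11:120229487-120239073), had the largest gain in both mutants, with 6990, 7899 and 9586 bp in KO, 8036, 7940 and 7543 bp in HxD and 4808, 2397 and 5448 bp in WT libraries. All mutant libraries were above all WT libraries, and limma gave KO minus WT as 3940.7 ± 1025 bp (adjusted p = 0.0272) and HxD minus WT as 3622.0 bp (adjusted p = 0.0408). Lefty1, a secreted inhibitor of Nodal signalling, had 3543, 2092 and 5116 bp in KO, 3661, 4528 and 2186 bp in HxD and 776, 1237 and 1674 bp in WT libraries (KO minus WT 2354.7 ± 664 bp, adjusted p = 0.035; HxD minus WT 2229.3 bp, adjusted p = 0.0486). Its neighbour and paralogue Lefty2 had a second called domain, with 2154, 2197 and 4111 bp in KO and 1512, 912 and 1223 bp in WT libraries (KO minus WT 1605.0 bp, adjusted p = 0.0349). In both, no KO library fell as low as any WT library.

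The domain of H2ac13, with the start sites of the histone genes H2bc13 and H3c10 beside it, had 3610, 3832 and 4334 bp in KO, 3319, 2699 and 2863 bp in HxD and 980, 2611 and 2143 bp in WT libraries (KO minus WT 2014.0 bp, limma adjusted p = 0.0166). All mutant libraries were above all WT libraries there. Near-identical histone genes can share reads, and their values are less certain for that. The domain of the bromodomain gene Brd2 and of H2-DMa, that of L3mbtl3, a reader of methylated lysine, that of Arid5b, and those of Mex3c, Lpxn with Zfp91, and Ank3 (99787 bp from its start site) gained 2017.7 to 2118.7 bp (adjusted p = 0.0159 to 0.0392). A domain 5228 bp from Trim27 gained 3069.0 ± 822 bp (adjusted p = 0.0295).

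In HxD libraries, set against the same WT libraries, 36 domains were lower (2.70%) and 10 higher (0.749%), beside 9.47% and 0.0661% of all regions tested. Of the regions present in all 9 libraries, 1.28% were called lower and 0.126% higher in that fit. The median difference was −100.0 bp over domains and −330.7 bp over all regions, but for domains it was 0.25 bp without HxD replicate 2, 10.2 bp without HxD replicate 3 and 44.2 bp without WT replicate 3, and 224.0 bp after centring. After centring the counts were 7 lower and 11 higher, and with lists of equal length 0 and 0 by limma, with 0 of the 46 called domains remaining. None remained without HxD replicate 1 (adjusted p = 0.0547 to 0.142), 2 (0.097 to 0.249) or 3 (0.063 to 0.142), and 17, 27 and 11 remained without WT replicates 1, 2 and 3. Fitted to regions present in all 9 libraries, limma called 2 domains lower and 0 higher, beside 14 of all 25421 such regions lower (0.0551%) and 0 higher (0%). At an unadjusted p under 0.05, 133 domains were lower and 49 higher, beside 27% and 0.613% of all regions tested. Of the 36 lower domains 25 had reached 4000 bp only through WT libraries, and no higher one had.

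Of the 36 domains lower in HxD, 5 belonged to the Hox and homeobox list and 3 to the list of other developmental factors. Those lists had 59 and 60 of all 1336 domains. Over 5 kb from a start site lay 207 of all 1336 domains and 14 of these 36. The smallest p among domains with a start site included that of Ston2, a gene of endocytic vesicle sorting, which had 2589, 597 and 2339 bp in HxD and 4422, 4237 and 4608 bp in WT libraries (−2580.7 ± 493 bp SE, limma adjusted p = 0.018), with HxD replicate 2 far below its fellows. Msx1, a homeobox gene of craniofacial and limb tissue, had 5032, 3607 and 3715 bp in HxD and 6539, 6742 and 6477 bp in WT libraries (−2468.0 bp, adjusted p = 0.033). Hand1, a bHLH factor of heart and placenta, had 3416, 3193 and 3865 bp in HxD and 5523, 4870 and 6871 bp in WT libraries (−2263.3 bp, adjusted p = 0.0329), and Dlx1, a forebrain homeobox gene, 4490, 1923 and 3301 bp in HxD and 5796, 5356 and 5449 bp in WT libraries (−2295.7 bp, adjusted p = 0.0458). All HxD libraries were below all WT libraries at each of these 4 genes. Domains 5375 bp from Sim1, 8110 bp from Sox21, 7373 bp from Uncx, and those named above near Vmn2r100 and Adgrl3 had differences of −2648.3 to −2324.0 bp (adjusted p = 0.018 to 0.0484).

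Of the 10 domains higher in HxD, 9 held a start site, beside 76.5% of all domains. Besides Bahcc1, Lefty1 and Ank3 they were those of Yy1, a zinc finger factor, Rest, the repressor of neuronal genes, Tle4, a Groucho corepressor, Tgif2, a homeobox corepressor that shares its domain with another start site, Ing1, whose PHD finger binds H3K4me3, Phf21a, whose PHD finger binds unmethylated H3K4, and the RNA-binding gene Hnrnpr. Ing1 had 4520, 4218 and 4445 bp in HxD, 3180, 4159 and 4322 bp in KO and 2591, 2384 and 3043 bp in WT libraries (HxD minus WT 1721.7 ± 404 bp SE, limma adjusted p = 0.0239). Yy1 had 4024, 3390 and 2737 bp in HxD, 3416, 3839 and 4032 bp in KO and 1802, 2481 and 1685 bp in WT libraries (1394.3 bp, adjusted p = 0.0405). Rest had 4603, 3877 and 3914 bp in HxD, 2640, 3905 and 4381 bp in KO and 2376, 2148 and 2914 bp in WT libraries (1652.0 bp, adjusted p = 0.0381), so that 1 KO library lay within the WT range and no HxD library did. KO and HxD were each set against the same 3 WT libraries, and their likeness is no separate evidence.

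**Figure D4:**
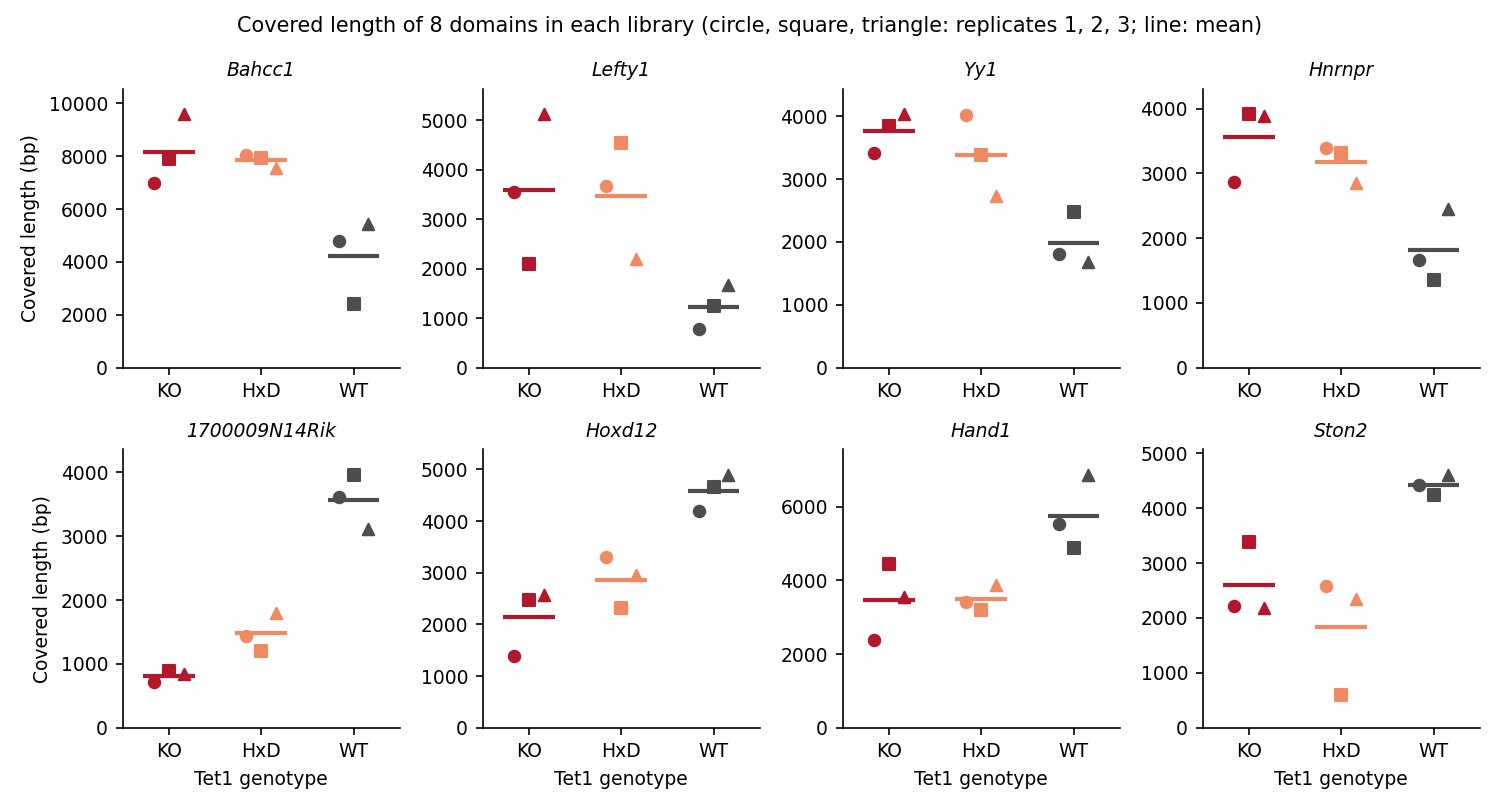
Covered length in bp (y axes, from 0) of 8 domains in each library by genotype, with replicates 1, 2 and 3 as circle, square and triangle and the mean as a line. In the upper row all mutant libraries are above all WT libraries, and in the lower row all are below them, with HxD replicate 2 lowest at Ston2 (597 bp).

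Between KO and HxD, limma called 0 domains lower and 0 higher, as in all regions tested. At an unadjusted p under 0.05, 8 domains were lower in KO (0.829% of all regions were) and 35 higher (1.94% of all regions). The median difference over domains was 214.8 bp. Among those with the smallest p, none of which passed (adjusted p = 1), were Kmt2d and Dppa3. The domain 823 bp from Kmt2d, an H3K4 methyltransferase gene, had 3163, 2973 and 4288 bp in KO, 2128, 2238 and 1525 bp in HxD and 2082, 2197 and 2267 bp in WT libraries, and all KO libraries were above all others. Against WT it was called in KO (1292.7 ± 370.2 bp SE, adjusted p = 0.037) and not in HxD (−218.3 bp, adjusted p = 0.716). Dppa3, which protects the maternal genome of the zygote from demethylation, had 3852, 4185 and 4279 bp in KO, 3188, 3397 and 2015 bp in HxD and 2785, 3191 and 3055 bp in WT libraries. Ypel4 (1815.0 bp), Samd1 (1342.7 bp) and Lgr5 (1337.3 bp) were the others on the higher side, and domains near Zfhx2 (−1635.3 bp), Hjurp (−1380.3 bp) and Tmeff2 (−981.3 bp), and that of Pigyl (−1062.3 bp), on the lower.

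Most domains of the Hox and homeobox list were below WT in both mutants, and few passed the test. The list does not hold every homeobox gene, and the domain of Tgif2, which is outside it, was called higher in HxD. A member of the Hox and homeobox list lay in or nearest to 59 domains. In KO 53 of them were below WT, with a median difference of −790.0 bp and 4 called lower, and in HxD 53, with −827.3 bp and 5 called lower; none was called higher. Those called were 6.78% of the list in KO and 8.47% in HxD, beside 3.14% and 2.70% of all domains and 11.9% and 9.47% of all regions tested. The signs are to be read beside 44.8% of all domains and 77.6% of all regions tested that were below WT in KO, and 56.2% and 83.5% in HxD. The KO median was −254.8 bp without KO replicate 1 and −436.3 bp with lists of equal length, and the HxD median −524.2 bp without HxD replicate 2 and −545.7 bp with lists of equal length. It was below 0 under every alternative tried. Over 60 domains of other developmental factors, 36 were below WT in KO (median −237.5 bp, 4 called lower, 0 higher) and 40 in HxD (−481.7 bp, 3 and 0). The KO median of that list turned to 241.3 bp without KO replicate 1, 44.4 bp after that centring and 154.5 bp with lists of equal length. For HxD it turned to 56.5 bp with lists of equal length. Of 8 Sertoli domains, 5 were below WT in KO (median −749.3 bp) and 6 in HxD (−452.2 bp), with none called. A domain 3470 bp from Wt1 came nearest (1885, 3407 and 2792 bp in KO, 4139, 2640 and 2522 bp in HxD and 4343, 3845 and 4545 bp in WT libraries; KO minus WT −1549.7 bp, adjusted p = 0.0534). The Sertoli and developmental lists share Sox9 and Wt1. Other lists overlap as well, with Sox2 and Tbx3 in the developmental and pluripotency lists and Lhx1 in the homeobox and spermatogonial lists. Dppa3 is in the pluripotency and DNA methylation lists, and Prdm9 in the meiotic and H3K4 methyltransferase lists. Of 4 Leydig and interstitial domains 1 was called, at the start site of Pdgfra in HxD (−1749.7 bp, adjusted p = 0.0323).

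Most domains of the housekeeping, pluripotency and chromatin lists were above WT in KO, as were 738 of all 1336 domains, but few passed the test. Of all domains 2.92% were called higher in KO and 0.749% in HxD, and of all regions tested 0.426% and 0.0661%. Above WT were 22.35% of all regions tested in KO, and 43.7% of all domains and 16.4% of all regions tested in HxD. The counts here and in the next paragraph are to be read beside these shares. All 9 housekeeping domains were above WT in KO (median 1417.7 bp, 538.7 bp without KO replicate 3), with 3 called higher, among them those of Hnrnpa2b1 with Cbx3 and of Hnrnpk with Rmi1, and 8 of 9 in HxD (637.0 bp, 314.3 bp without WT replicate 1, none called). Of 18 pluripotency and germ cell domains, 14 were above WT in KO (median 952.0 bp, 704.1 to 1107.5 bp with 1 KO library left out; 2 called, those of the Lefty genes) and 12 in HxD (351.3 bp, 39.1 bp without HxD replicate 1; 1 called, that of Lefty1). Pou5f1 was covered over 3022, 2240 and 4354 bp in KO, 3866, 3145 and 2664 bp in HxD and 1861, 1636 and 2270 bp in WT libraries, and did not pass (KO minus WT 1283.0 ± 481 bp, adjusted p = 0.0942; HxD minus WT 1302.7 bp, adjusted p = 0.0987), with 1 KO library below the highest WT library. Sox2 had 4159, 5351 and 5903 bp in KO, 6382, 4948 and 4000 bp in HxD and 2756, 1863 and 5121 bp in WT libraries and did not pass either (adjusted p = 0.134 and 0.149).

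All 9 domains of DNA methylation genes and partners were above WT in KO (median 733.0 bp, 264.8 bp without KO replicate 3) with none called, and 5 of 9 in HxD (345.0 bp; −53.3 bp without WT replicate 2). Sin3a had 3173, 5949 and 6929 bp in KO, 6782, 6359 and 5616 bp in HxD and 3858, 5184 and 5004 bp in WT libraries, where HxD libraries were above WT and KO libraries on both sides. All 8 domains of H3K4 methyltransferase genes and partners were above WT in KO (median 523.0 bp, 849.8 bp without KO replicate 1 and 918.0 bp with lists of equal length; 1 called, near Kmt2d), against 3 of 8 in HxD (−26.0 bp, and from −133.8 bp without WT replicate 2 to 550.2 bp with lists of equal length). Kmt2c had 3770, 3993 and 4348 bp in KO, 3906, 4083 and 2582 bp in HxD and 2786, 2203 and 3128 bp in WT libraries (KO minus WT 1331.3 bp, adjusted p = 0.0622). The H3K4 demethylase list had 1 domain, that of the LSD1 partner Rcor1 (KO minus WT 1302.3 bp, adjusted p = 0.0676). Other chromatin regulators had 8 of 12 domains above WT in KO and 9 of 12 in HxD, with 1 called, that of Brd2 in KO. Prospermatogonial and spermatogonial genes (5 of 9 above WT in KO and 3 of 9 in HxD), meiotic genes (2 of 2 and 0 of 2) and imprinted genes (7 of 15 and 3 of 15) had no call in KO, and 1 imprinted domain, 4974 bp from the growth factor gene Igf2, was called lower in HxD (−1697.0 bp, adjusted p = 0.033). Of all domains 2.70% and of all regions tested 9.47% were called lower in HxD.

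**Figure D5:**
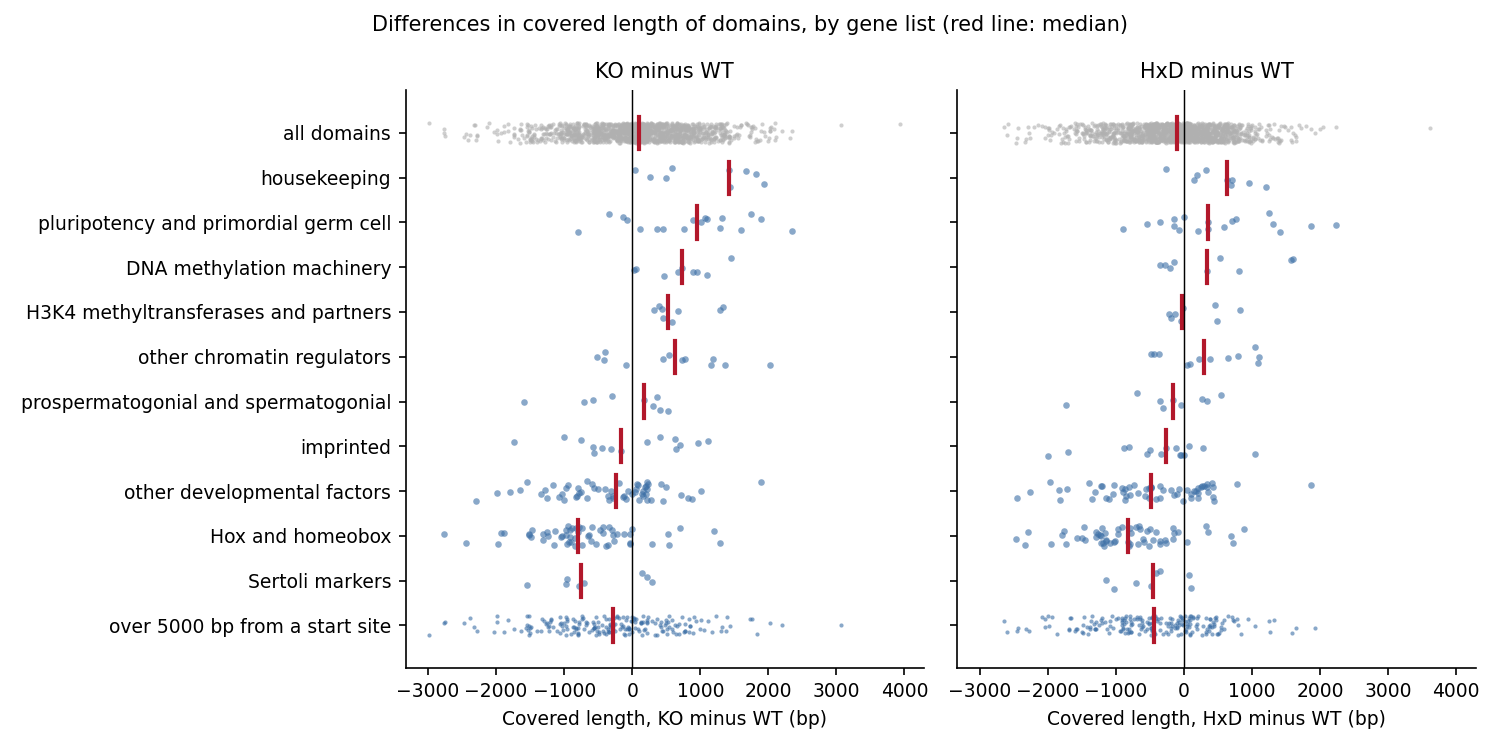
Difference in covered length in bp (x axis) of each domain in or nearest to a member of each gene list, KO minus WT (left) and HxD minus WT (right). Points are domains, grey for all 1336, and red lines are medians; the Hox and homeobox median is at −790.0 bp in KO and −827.3 bp in HxD, and that of housekeeping genes at 1417.7 bp and 637.0 bp.

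The 207 domains over 5 kb from any start site are given beside those with a start site. In KO 131 were below WT (median −289.3 bp, 17 called lower and 5 higher) and in HxD 140 (−442.0 bp, 14 and 1). The share called lower was 8.21% in KO and 6.76% in HxD, beside 11.9% and 9.47% of all regions tested. That called higher was 2.42% in KO and 0.483% in HxD, beside 0.426% and 0.0661% of all regions tested. Of the 1022 domains with a start site, 406 were below WT in KO (median 176.0 bp, 24 called lower and 32 higher) and 531 in HxD (−20.7 bp, 19 and 9). Their shares called were 2.35% lower and 3.13% higher in KO, and 1.86% and 0.881% in HxD. The KO median of the distant domains was 124.3 bp without KO replicate 1, −7.48 bp after centring and 92.7 bp with lists of equal length; that of HxD was −158.3 bp without HxD replicate 2, −227.2 bp without WT replicate 3 and 58.0 bp with lists of equal length. For domains with a start site leaving out KO replicate 3 gave a KO median of −42.3 bp and leaving out KO replicate 1 gave 518.9 bp, and the HxD median ran from −223.1 bp without HxD replicate 1 to 110.9 bp without WT replicate 3 and 348.8 bp with lists of equal length. The difference between the 2 kinds of domain was not tested.

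The highest fold enrichment of most domains was above WT in the mutants, without any call. Limma on its log2, with each library centred on its median over the 25421 regions present in all 9 libraries, called 0 domains at an adjusted p under 0.05 in KO minus WT, HxD minus WT and KO minus HxD. Over the 1322 domains fitted, the highest fold of single domains reproduced poorly. Spearman's rho was 0.03 to 0.12 between WT libraries, 0.20 to 0.29 between KO libraries and 0.17 to 0.25 between HxD libraries. Of these domains, 1035 were above WT in KO, with a median log2 difference of 0.44, and 1001 in HxD, with 0.31. Over all regions these medians were 0.08 and 0.05. The domain median stayed between 0.36 and 0.52 in KO and between 0.25 and 0.36 in HxD when 1 library was left out, and was 0.23 and 0.24 after quantile normalisation. At an unadjusted p under 0.05, 282 domains were higher and 5 lower in KO, beside 11.2% and 6.3% of all regions, and 135 and 13 in HxD, beside 6.06% and 3.33%. In KO minus HxD 63 were higher and 13 lower, beside 3.56% and 2.18%. Tln2, a cytoskeletal adaptor gene, came nearest, with a highest fold of 29.8, 42.8 and 52.0 in KO, 29.2, 33.2 and 28.1 in HxD and 14.6, 11.4 and 21.8 in WT libraries (log2 difference 1.28 in KO, adjusted p = 0.0857; 1.02 in HxD, adjusted p = 0.327). Mpnd and Stap2 share a domain at 25.9, 26.4 and 40.4 in KO, 26.9, 19.2 and 15.6 in HxD and 4.42, 7.68 and 12.0 in WT libraries (1.91 in KO, adjusted p = 0.0857). All mutant libraries were above all WT libraries at both, although the covered length of Tln2 differed little (KO minus WT 631.3 bp, adjusted p = 0.254). Over the 59 homeobox domains the median log2 differences were 0.02 in KO and −0.07 in HxD.

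The tallest domains were those of Tln2, Smarca2, an ATPase of the SWI/SNF complex, a domain 123799 bp from Ube2h, one 83658 bp from Nol4l, and Lhx1, and the lowest those near Esp38, Capn11, Icos and Pawr and the gene desert domain of chromosome 4 described above. At the domain 103419 bp from Esp38 the highest fold was 2.62, 3.95 and 1.96 in KO, 3.99, 2.77 and 5.04 in HxD and 2.96, 3.69 and 4.91 in WT libraries, so that a length over 4 kb did not require a high peak.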

How the data were processed

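H3K4me3 CUT&RUN libraries of KO, HxD and WT prospermatogonia (3 each) were used as deposited peak lists. Per the submitters' processing notes the tools included MACS2 2.1.0, a peak caller, and Bowtie2 2.5.0, an aligner, with build mm10. The labels do not say whether IgG served as the control of peak calling. The deposited column of fold enrichment (a ratio at each summit) and the authors' −log10 q per peak were used; the deposited −log10 p and the authors' integer score were not. The lists give no read counts, so the depth behind a value is unknown and no counting interval can be given.

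Overlapping peaks were merged in Python 3.11.15 with pandas 2.3.3, and regions of 4000 bp or more were kept. Coding start sites came from RefSeq GRCm38.p6, the assembly that mm10 names. Limma 3.58.1 in R 4.3.3, with an empirical Bayes trend and genotype as the only term, was fitted to the covered length of the 78668 regions with a peak in at least 3 libraries, and to log2 of the highest fold of the 25421 regions present in all 9. P-values were adjusted over all regions fitted, with a threshold of 0.05, after a test on simulated data. The lowest −log10 q in a list was 2.00 to 2.02, and the stricter alternative asked for 4. Domains named were the longest, the largest differences past the threshold (or the smallest p where few passed), the longest of each gene list, and extremes of height and form. Lefty2, H2ac13, Rmi1, Igf2 and the genes of the marker lists were named after their values were seen. The domains, gene lists and tests were chosen with earlier results of these data known. Some items are not reported here.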

Additional observations from a re-analysis of the deposited data

How the results depend on the processing

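Of the domains called, 78 of 81 in KO and 45 of 46 in HxD kept their sign under all 16 alternatives, while the number past the threshold moved with nearly every one. Some alternatives cannot change a difference: the replicate block, no filter, regions in all 9 libraries, and leaving out a library of the genotype not compared. The domains called were also selected for large differences, so the kept signs are no separate support. Domains lower in KO (42) numbered 178 at 3000 bp, 17 at 5000 bp, 9 on a log2 scale with 100 bp added, 24 after centring, 4 with lists of equal length and 4 over regions in all 9 libraries, and 0 to 46 with 1 library left out. Those higher in KO (39) numbered 117, 14, 22 and 96 under the first 4 of these and 0 over regions in all 9 libraries, and 0 to 36 with 1 library left out. Domains lower in HxD (36) numbered 150, 15, 13, 7, 0 and 2 under the same 6, 69 with no filter on presence, and 0 to 43 with 1 library left out. Those higher in HxD (10) numbered 26 at 3000 bp, 3 at 5000 bp, 3 on the log2 scale, 0 with lists of equal length, 6 with stricter peaks, 0 over regions in all 9 libraries, and 0 to 12 with 1 library left out. Counts at 3000 and 5000 bp differ because 4984 and 464 regions reach those lengths; the cause of the other shifts was not tested. With replicate number as a block, 24 domains were lower and 27 higher in KO, and 16 lower and 2 higher in HxD. Deviations of same-numbered libraries from their genotype means had correlations of −0.196 to −0.128 between KO and HxD. They were −0.024 to 0.087 between KO and WT and −0.065 to 0.018 between HxD and WT. With 3 libraries per genotype, such values cannot tell whether the numbers pair the libraries. KO minus HxD and all counts of highest fold stayed at 0 by limma under every alternative run. The mean number of separate peaks in WT was 1.46 with lists of equal length and 1.97 with stricter peaks, both tried after seeing the data. Read depth is unknown, and a peak list cannot tell a weak stretch from an absent one.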
